A study of Homo sapiens with 12 samples.

Results

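The genes described here are 46 integrin subunits and focal adhesion components, chosen by gene name and found in both deposited tables, which share 60558 gene identifiers. They comprise 10 integrin alpha subunits, 8 integrin beta subunits, 5 talins and kindlins, 4 members of the ILK-PINCH-parvin complex, 4 kinases and scaffolds, 6 actin linkers and LIM proteins, 4 tensins, 3 ERM proteins and 2 other membrane proteins, MCAM and CD151. Their mRNA was measured in MDA-MB-231, a human triple-negative breast cancer line, in 2 RNA-seq experiments of 6 libraries each. In the first, cells with NONO knockdown (NONO KD, n = 3) were set against their own negative control (NONO NC, n = 3, genotype WT); in the second, cells with PKM2 knockdown (PKM2 KD, n = 3) were set against another negative control (PKM2 NC, n = 3, genotype WT). The series describes the knockdown as made by siRNA, and the study sought genes that the RNA-binding protein NONO and the pyruvate kinase isoform PKM2, which is encoded by PKM, control in these cells. All 4 groups were the same line with no other treatment named, so the values describe 1 line in culture. The labels do not say whether the 3 libraries of a group came from separate cultures, so P values measure the spread between these libraries, which may be technical.

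Integrins are heterodimers of an alpha and a beta subunit that bind extracellular matrix proteins such as laminin, collagen and fibronectin. Talins and kindlins bind the beta tail and switch the receptor on, and vinculin, alpha-actinins, filamin, the ILK-PINCH-parvin complex and paxillin then tie it to actin filaments and to the kinases FAK (PTK2) and SRC. In invasive carcinoma cells these adhesions serve both traction and signalling.

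The library totals ranged from 19861762 to 28455268 estimated counts. NONO was measured at 358 to 391 CPM (counts scaled to a fixed library size) in NONO NC and 61.8 to 64.3 CPM in NONO KD, and PKM at 2211 to 2324 CPM in PKM2 NC and 218 to 234 CPM in PKM2 KD, so each targeted gene fell in all 3 knockdown libraries. Each also rose when the other was knocked down: PKM was at 2159 to 2195 CPM in NONO NC and 2579 to 2630 CPM in NONO KD (log2 fold change 0.26, adjusted P = 1.22e-04), and NONO was at 352 to 370 CPM in PKM2 NC and 443 to 454 CPM in PKM2 KD (0.30, adjusted P = 7.54e-05, edgeR). The line's markers VIM, CD44, KRT18, KRT8 and KRT19 summed to between 4099 and 5149 TPM (transcripts scaled by length to a fixed total), with 5 of 5 at 1 TPM or more. Of ESR1, PGR, ERBB2, EPCAM and CDH1, which are low in such a line, ERBB2 (13.7 to 35.2 TPM) and EPCAM (1.29 to 3.73 TPM) were above 1 TPM, and CDH1 was at 0 to 0.0600 TPM. Leukocyte markers summed to at most 1.83 TPM, endothelial markers to at most 4.06 TPM, fibroblast markers to at most 9.96 TPM and megakaryocyte markers to at most 0.20 TPM. NONO NC replicate 1 and PKM2 KD replicate 3 stood apart from the other libraries of their groups, with a chi-square per degree of freedom of 8.94 to 13.4 against them, where other pairs of replicates gave 2.38 to 4.41.

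RefSeq promoter windows, from 250 bases before to 50 after an annotated start, were held for 35 of the 46 genes, in 69 windows on GRCh38.p14. Letters of 3 motifs were searched on both strands: GGAATG, a TEAD motif core, TGANTCA, the AP-1 motif, and the CArG box bound by SRF. GGAATG or its reverse complement stood in 8 of the 35 genes (22.9%; 16.7% of all genes with a window) and in 10 of 69 windows (14.5%; 14.0% of all windows). TGANTCA stood in 7 of 35 genes (20%; 9.37% of all genes) and the CArG box in 4 of 35, ACTN1, FLNA, ITGB6 and LPP (11.4%; 1.6% of all genes). These genes have more windows each than the average gene, so the shares by window are the closer comparison. There the AP-1 letters stood in 13.0% of the members' windows against 7.71% of all windows, and the CArG box in 5.8% against 1.29%. LPP, with 7 windows, held the AP-1 letters in windows 4, 6 and 7 and a CArG box in window 4. Windows of 1 gene are not independent, so the AP-1 share by window rests in part on LPP. Of the 8 genes with GGAATG, 7 were lowered after PKM2 knockdown, where 34.7% of all genes and 63.4% of the 41 members tested were. They were ITGA5, ITGA10, ITGB1, PXN, TNS1, VCL and LPP, and ACTN1 was not called. ITGA10 and TNS1 passed the low-count filter there through the controls, where they were high, so nothing is read from this share. Of the 4 with a CArG box, FLNA was raised, LPP was lowered, ACTN1 was not called and ITGB6 was not tested, so neither set of letters went with 1 direction in every gene. The windows of 5 of these genes that the results below turn on are printed here as examples; each is written 5′ to 3′ on the strand of its gene, and capitals mark the matched letters (in ITGA5 the second run in capitals is the AP-1 match).
ITGB1, chr10:32958181-32958480, minus strand: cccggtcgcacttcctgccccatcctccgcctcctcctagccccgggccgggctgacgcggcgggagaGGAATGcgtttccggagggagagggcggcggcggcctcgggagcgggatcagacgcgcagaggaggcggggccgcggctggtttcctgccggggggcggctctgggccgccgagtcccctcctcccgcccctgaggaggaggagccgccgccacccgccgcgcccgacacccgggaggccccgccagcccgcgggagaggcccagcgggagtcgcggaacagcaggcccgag
ITGA5, chr12:54419217-54419516, minus strand: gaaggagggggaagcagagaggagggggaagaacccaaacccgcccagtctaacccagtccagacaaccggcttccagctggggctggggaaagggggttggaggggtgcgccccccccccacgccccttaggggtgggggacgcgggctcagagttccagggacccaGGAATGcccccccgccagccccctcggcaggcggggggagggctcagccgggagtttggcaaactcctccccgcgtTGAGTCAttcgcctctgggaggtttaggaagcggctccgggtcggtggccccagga
PXN, chr12:120250114-120250413, minus strand: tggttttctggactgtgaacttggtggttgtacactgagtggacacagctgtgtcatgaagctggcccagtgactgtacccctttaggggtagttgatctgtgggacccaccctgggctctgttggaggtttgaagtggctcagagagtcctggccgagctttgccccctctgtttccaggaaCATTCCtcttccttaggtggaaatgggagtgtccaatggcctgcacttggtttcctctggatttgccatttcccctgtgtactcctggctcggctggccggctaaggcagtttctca
VCL, chr10:73997866-73998165, plus strand: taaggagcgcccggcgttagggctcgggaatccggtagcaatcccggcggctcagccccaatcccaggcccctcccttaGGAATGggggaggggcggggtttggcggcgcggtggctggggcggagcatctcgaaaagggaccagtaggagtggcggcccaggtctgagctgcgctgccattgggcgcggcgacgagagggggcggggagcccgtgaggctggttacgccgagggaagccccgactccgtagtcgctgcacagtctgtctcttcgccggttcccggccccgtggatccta
FLNA, chrX:154374585-154374884, minus strand: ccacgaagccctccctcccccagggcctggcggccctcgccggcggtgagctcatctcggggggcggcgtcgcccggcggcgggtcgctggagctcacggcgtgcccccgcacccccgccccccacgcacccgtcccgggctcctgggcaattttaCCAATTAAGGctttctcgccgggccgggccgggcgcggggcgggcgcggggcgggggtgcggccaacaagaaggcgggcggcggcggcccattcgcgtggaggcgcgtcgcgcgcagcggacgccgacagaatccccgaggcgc
ITGB1 and PXN have another annotated start each, whose window held none of the 3 motifs. The single windows of FERMT2 and MCAM, which fell after both knockdowns, held none either. A match is a run of letters and not a measured binding site.

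In the control libraries the set was led by ITGB1, the shared beta chain of the laminin, collagen and fibronectin receptors, at 842 ± 25.8 TPM (SD, n = 3) in NONO NC and 732 ± 12.4 TPM in PKM2 NC. FLNA (filamin A) followed at 629 ± 21.3 and 679 ± 13.9 TPM and MSN (moesin) at 551 ± 4.02 and 583 ± 8.60 TPM, and these 3 did not overlap in either control group. Among alpha subunits the order was ITGA3, ITGA6, ITGA5, ITGA2, ITGAV, ITGA1, ITGA7 and ITGA10 in both control groups, from 269 ± 17.4 TPM for ITGA3, a laminin receptor chain, to 2.15 ± 1.47 TPM for ITGA10 in NONO NC. Neighbours in that order did not overlap except ITGA7 and ITGA10 in NONO NC. ITGB5, a partner of ITGAV, was the next beta subunit at 78.2 ± 12.7 and 93.2 ± 8.02 TPM, then ITGB2, ITGB4 and ITGB3. The kindlin of these cells was mainly FERMT2 (75.2 ± 2.04 and 77.1 ± 1.03 TPM), the talin TLN1 (127 ± 4.46 and 150 ± 8.89 TPM) and the parvin PARVA (17.6 ± 0.758 and 19.1 ± 0.420 TPM).

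Of the 46, 5 members were near 0 and were not tested in either experiment. ITGA4 had at most 1 estimated count in any library, ITGA11 at most 4, ITGB7 at most 6, PARVB at most 7 and ITGB6 at most 9. The other 41 members passed the filter on low counts in both fits. TNS4 and ITGB8 after NONO knockdown and ITGA10, TNS1 and TNS4 after PKM2 knockdown passed it through the group with the higher values, TNS1 after NONO knockdown passed on 3 libraries of both groups, and the counts of these members ran from 4 to 61 in those experiments.

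After NONO knockdown the set split. Of 41 members tested, 11 were lowered (26.8%, where 17.2% of all 14832 genes tested were lowered) and 10 were raised (24.4%, where 16.2% of all genes were raised), by edgeR's quasi-likelihood test at a Benjamini-Hochberg adjusted P below 0.05. The median log2 fold change of the members was -0.01, equal to that of all genes. In bulk libraries a lower level in every cell and fewer cells that express a gene cannot be told apart. Tested by limma on log2(TPM + 1), 8 members were lowered and 3 raised. That fit called 2645 of all 13786 genes tested, in either direction. The lowered members were ITGA3, ITGA7, ITGB5, FERMT2, FERMT3, TLN2, VCL, ZYX, ACTN4, MSN and MCAM, and the raised members were ITGA2, ITGA10, ITGAV, ITGB1, ITGB2, ITGB4, ILK, TNS2, EZR and LPP. By the cutoffs of the study, which ask for more than a 2-fold change and an unadjusted P under 0.05, 3 of 41 were DEGs (7.32%, where 2.95% of all genes were), namely ITGA7, ITGA10 and TNS4. TNS4 passed the filter through the knockdown group, where it was high, so nothing is read from that share. The limma fit ended the calls of ITGA2, ITGA7, ITGA10, ITGAV, ITGB4, ITGB5, TLN2, ILK, TNS2 and LPP. Calls were also lost with 1 library left out, those of the largest rises, ITGA10 and ITGB4, among them: that of ITGA3 without any 1 library other than NONO NC replicate 1, of ITGA10 without NONO KD replicate 1 or 2, of ITGB4 without any 1 NONO KD library, of LPP without NONO NC replicate 2 or any 1 NONO KD library, of ZYX without NONO KD replicate 2 or 3, and of ITGA2 without NONO KD replicate 2. Leaving out NONO NC replicate 1 lost 0 calls and added ITGA5, FERMT1, TLN1, SRC and FLNA.

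After PKM2 knockdown most of the set was lowered. Of 41 members tested, 26 were lowered (63.4%, where 34.7% of all 15524 genes tested were lowered) and 7 were raised (17.1%, where 33.6% of all genes were raised), by the same test. The median log2 fold change of the members was -0.51 and that of all genes -0.01. The members were longer and richer in GC than the average gene, with medians of 4304 bases and 54.3% against 2876 bases and 48.0%, and with an offset that takes out the trend with length and GC content the members' median was -0.34, with 24 lowered and 7 raised. With the offset 10866 of all 15524 genes tested were called, in either direction. That offset ended the calls of TLN2, ZYX, LIMS1, PTK2 and RDX and added those of ITGA6, TLN1 and EZR. DEGs by the study's cutoffs numbered 10 of 41 (24.4%, where 20.8% of all genes were DEGs). All 10 were lowered (13.8% of all genes were lowered DEGs): ITGA7, ITGA10, ITGB1, ITGB3, ITGB4, PXN, PARVA, TNS1, SRC and MCAM. ITGA10 and TNS1, which count among both the 26 lowered members and the 10 DEGs, passed the filter through the controls, where they were high. Nothing is read from their part in either share. The limma fit on log2(TPM + 1) ended the calls of ITGA1, TLN2, LIMS1, RDX and LPP and left out ITGA10, ITGB3 and TNS1 by its filter on low TPM.

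**Figure D1:**
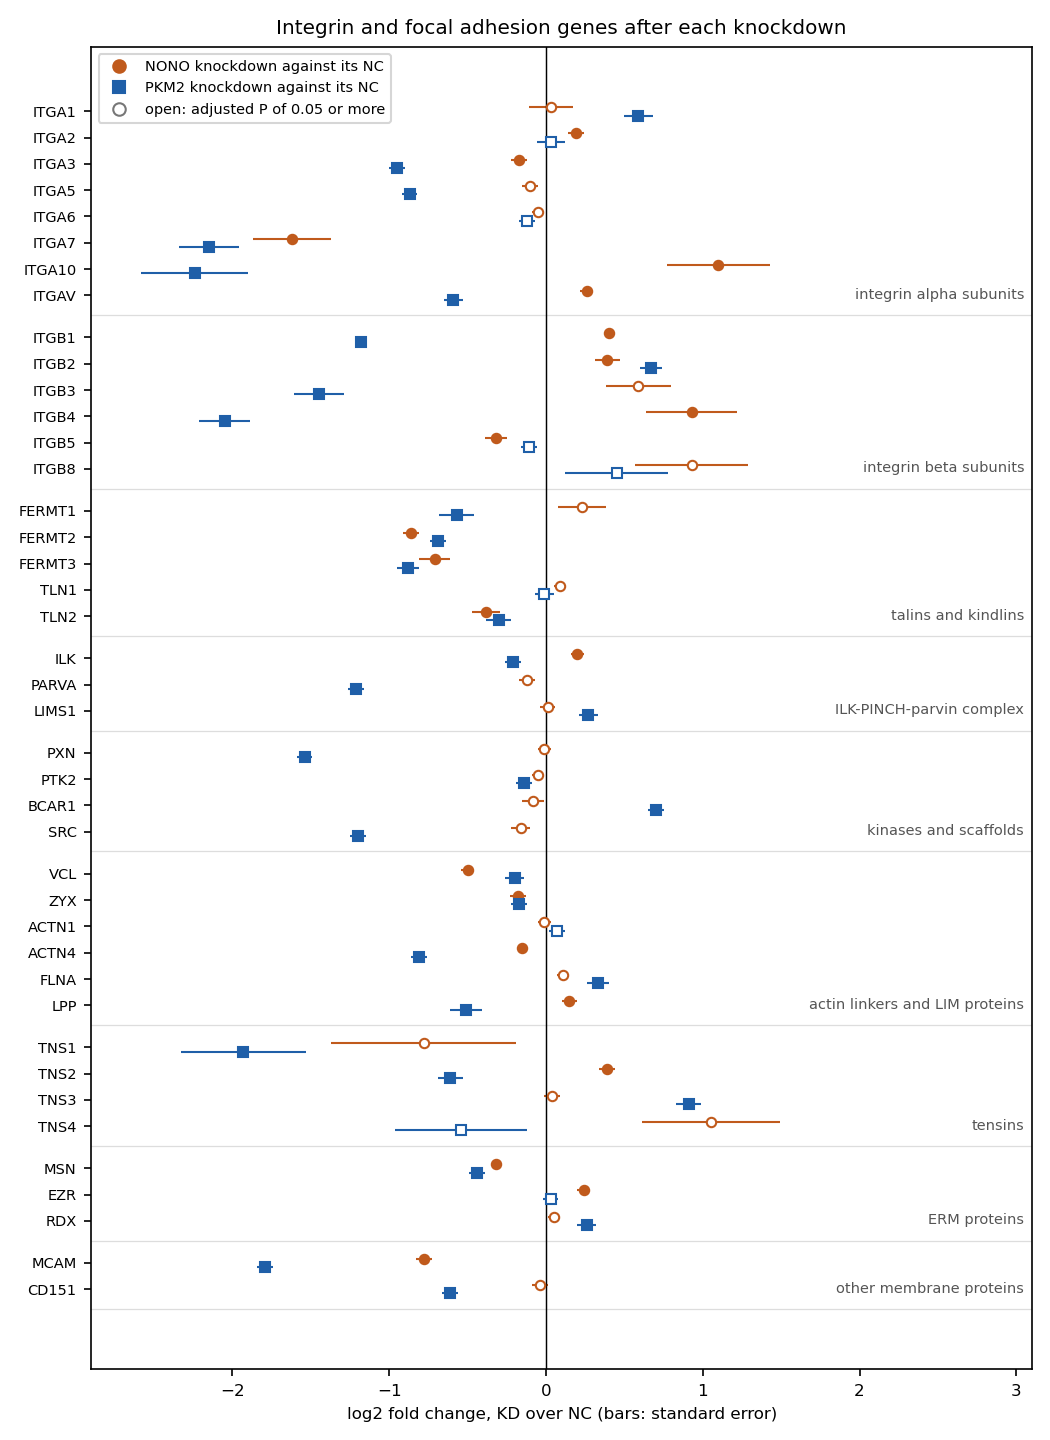
Log2 fold change of each of the 41 tested members, ordered by role, after NONO knockdown (circles) and after PKM2 knockdown (squares), each against its own NC, with the standard error as a bar. Filled symbols have an adjusted P below 0.05. Filled squares lie left of 0 for 26 members and right of 0 for 7, while filled circles lie left of 0 for 11 and right of 0 for 10.

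ITGB1 went in opposite directions. It was measured at 2109, 2149 and 2192 CPM in NONO NC and at 2804, 2835 and 2869 CPM in NONO KD, and the log2 fold change with its standard error was 0.40 ± 0.03 (adjusted P = 6.61e-06, edgeR). It was measured at 1805, 1760 and 1762 CPM in PKM2 NC and at 798, 802 and 749 CPM in PKM2 KD, a log2 fold change of -1.18 ± 0.04 (adjusted P = 1.24e-09, edgeR). Every knockdown library lay outside its control group, above it for NONO and below it for PKM2.

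ITGB4, which pairs with ITGA6 in hemidesmosomes, had 6.52, 20.6 and 20.1 CPM in NONO NC and 30.4, 32.7 and 27.2 CPM in NONO KD. It had 8.29, 10.2 and 10.7 CPM in PKM2 NC and 2.28, 2.66 and 2.14 CPM in PKM2 KD. The groups did not overlap in either experiment, and the log2 fold changes were 0.93 ± 0.29 (adjusted P = 0.0273) and -2.05 ± 0.16 (adjusted P = 2.89e-07) by edgeR. NONO NC replicate 1, the lowest of its group, set much of the first value, which was 0.57 without it (adjusted P = 1.20e-05, edgeR); the rise was not called by DESeq2 (adjusted P = 0.143).

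ITGB3, the beta chain of the vitronectin receptor with ITGAV, had 3.16, 5.91 and 5.47 CPM in NONO NC and 8.28, 7.42 and 6.20 CPM in NONO KD, with a log2 fold change of 0.59 ± 0.21 that missed the threshold (adjusted P = 0.0511, edgeR). DESeq2 called it (0.60, adjusted P = 0.0410), as did edgeR with RLE size factors or without the low-count filter, and without NONO NC replicate 1, the lowest library, the value was 0.37 (adjusted P = 0.0623, edgeR). In the PKM2 experiment it had 5.46, 5.88 and 5.40 CPM in NC and 2.11, 1.98 and 2.02 CPM in KD, and fell by 1.45 ± 0.16 on the log2 scale (adjusted P = 5.59e-06, edgeR). The knockdown libraries lay above all controls in the first experiment and below all in the second. Of the 4394 exon bases of ITGB3 in GENCODE 29, 2266 are shared with a read-through gene on the same strand, AC068234.1, so its counts are uncertain.

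ITGB2, the beta chain of leukocyte integrins, was the 1 member raised after both knockdowns (2.44% of members, where 9.34% of all genes were raised after both). It had 25.9, 29.8 and 26.2 CPM in NONO NC and 37.8, 36.7 and 33.1 CPM in NONO KD, and 23.1, 24.7 and 26.3 CPM in PKM2 NC against 36.8, 42.2 and 38.8 CPM in PKM2 KD. Knockdown libraries lay above the controls in both, with log2 fold changes of 0.39 ± 0.08 (adjusted P = 0.00272) and 0.67 ± 0.07 (adjusted P = 7.57e-06) by edgeR. Leukocyte markers summed to 0.450 to 0.760 TPM in NONO NC, 0.520 to 1.08 in NONO KD, 0.690 to 1.83 in PKM2 NC and 0.840 to 0.980 in PKM2 KD. The monocyte marker CD14 reached 1.04 TPM in the NONO experiment and 1.82 TPM in the PKM2 experiment, ITGAM was at or below 0.140 TPM, PTPRC at or below 0.150 TPM and CD3E at 0 in all 12 libraries; their part in the result was not tested. ITGB5 fell after NONO knockdown (log2 fold change -0.32 ± 0.07, adjusted P = 0.00700); its value after PKM2 knockdown was -0.11 ± 0.05 (adjusted P = 0.0751), and the difference between the knockdowns was not called (0.19 ± 0.10, adjusted P = 0.0991, edgeR). ITGB8 was not called in either, at 0.467 to 1.27 CPM over all libraries.

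Among the alpha subunits, ITGA7, a laminin receptor chain of muscle, fell after both knockdowns. It had 4.07, 5.67 and 5.28 CPM in NONO NC and 2.14, 1.68 and 1.07 CPM in NONO KD, and 5.39, 7.03 and 6.10 CPM in PKM2 NC against 1.41, 1.20 and 1.55 CPM in PKM2 KD. The groups were apart in both experiments, with log2 fold changes of -1.62 ± 0.25 (adjusted P = 4.96e-04) and -2.15 ± 0.19 (adjusted P = 8.71e-07) by edgeR. By limma the ITGA7 fall after NONO knockdown was not called, at -0.61 on log2(TPM + 1) (adjusted P = 0.120, or 0.275 without the filter) and -0.81 on log2(TPM + 0.1) (adjusted P = 0.115).

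ITGA10, a collagen receptor chain, rose after NONO knockdown and fell after PKM2 knockdown. It had 1.51, 4.82 and 6.26 CPM in NONO NC and 9.33, 10.4 and 7.47 CPM in NONO KD, and 2.08, 1.99 and 1.83 CPM in PKM2 NC against 0.580, 0.215 and 0.436 CPM in PKM2 KD. The log2 fold changes were 1.10 ± 0.33 (adjusted P = 0.0253) and -2.24 ± 0.34 (adjusted P = 9.98e-05) by edgeR. The rise was 0.72 without NONO NC replicate 1, again the lowest library (adjusted P = 0.00122, edgeR), and it was not called by DESeq2 (adjusted P = 0.124).

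ITGAV, the chain that pairs with several beta subunits to bind RGD ligands, had 135, 135 and 134 CPM in NONO NC and 162, 157 and 164 CPM in NONO KD. It had 129, 128 and 128 CPM in PKM2 NC and 88.3, 91.8 and 76.5 CPM in PKM2 KD. Thus it rose by 0.26 ± 0.04 (adjusted P = 5.59e-04) and fell by 0.59 ± 0.06 (adjusted P = 7.05e-06) on the log2 scale, edgeR, with no overlap between groups in CPM. In TPM, ITGAV ran from 27.3 to 29.1 in NONO NC and from 29.1 to 32.7 in NONO KD. ITGA3 fell by 0.17 ± 0.05 after NONO knockdown (adjusted P = 0.0238), a call lost when any of 5 of the 6 libraries was left out, and by 0.95 ± 0.05 after PKM2 knockdown (adjusted P = 9.56e-09, edgeR), from 664 ± 24.8 to 343 ± 10.8 CPM. ITGA5, the fibronectin receptor chain, was not called after NONO knockdown (-0.10 ± 0.05, adjusted P = 0.124) and fell from 156 ± 4.27 to 85.2 ± 4.53 CPM after PKM2 knockdown (adjusted P = 4.85e-08, edgeR).

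ITGA1, a collagen receptor chain, was the 1 alpha subunit raised after PKM2 knockdown. Its libraries had 35.5, 35.4 and 40.8 CPM in PKM2 NC and 59.3, 61.1 and 47.5 CPM in PKM2 KD, without overlap, for a log2 fold change of 0.59 ± 0.09 (adjusted P = 1.66e-04, edgeR). The lowest knockdown value was that of replicate 3, the library that stood apart. In TPM the ITGA1 groups overlapped, with 8.52 to 10.5 TPM in PKM2 NC and 15.3, 13.5 and 9.57 TPM in PKM2 KD, and the rise was not called by limma (0.40 on log2(TPM + 1), adjusted P = 0.0770, or 0.173 without the filter; 0.43 on log2(TPM + 0.1), adjusted P = 0.0704). ITGA1 after NONO knockdown was at 0.03 ± 0.14 (adjusted P = 0.877). ITGA2, another collagen receptor chain, rose by 0.19 ± 0.05 after NONO knockdown (adjusted P = 0.0121) and was at 0.03 ± 0.09 after PKM2 knockdown (adjusted P = 0.774, edgeR). ITGA6, a laminin receptor chain, was called in neither, at -0.05 ± 0.04 (adjusted P = 0.277) and -0.12 ± 0.05 (adjusted P = 0.0792).

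The subunits were also summed by library. The summed TPM of the 8 beta subunits went from 944 ± 41.6 in NONO NC to 1162 ± 8.10 in NONO KD and from 848 ± 7.64 in PKM2 NC to 403 ± 28.2 in PKM2 KD (SD, n = 3). The summed TPM of the 10 alpha subunits went from 616 ± 26.5 to 557 ± 11.9 and from 606 ± 20.2 to 389 ± 32.0. ITGB1 thus made up 89.2% ± 1.46 of beta TPM in NONO NC and 91.7% ± 0.608 in NONO KD, against 86.3% ± 1.13 in PKM2 NC and 73.5% ± 1.27 in PKM2 KD.

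ITGB1 TPM per alpha subunit TPM was 1.37 ± 0.0343 in NONO NC and 1.91 ± 0.0492 in NONO KD, and 1.21 ± 0.0604 in PKM2 NC and 0.763 ± 0.00754 in PKM2 KD. ITGA3 and ITGA6, the main laminin receptor chains here, held 43.5% ± 0.840 and 26.7% ± 1.14 of alpha TPM in PKM2 NC and 33.8% ± 2.21 and 34.0% ± 1.35 in PKM2 KD, where their ranges over the libraries overlapped. In NONO KD they held 40.6% ± 0.299 and 30.7% ± 0.951, against 43.7% ± 1.23 and 30.2% ± 1.29 in NONO NC. With 3 libraries against 3 a two-sided exact permutation test cannot give a P below 0.1, and no test was run on these sums.

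**Figure D2:**
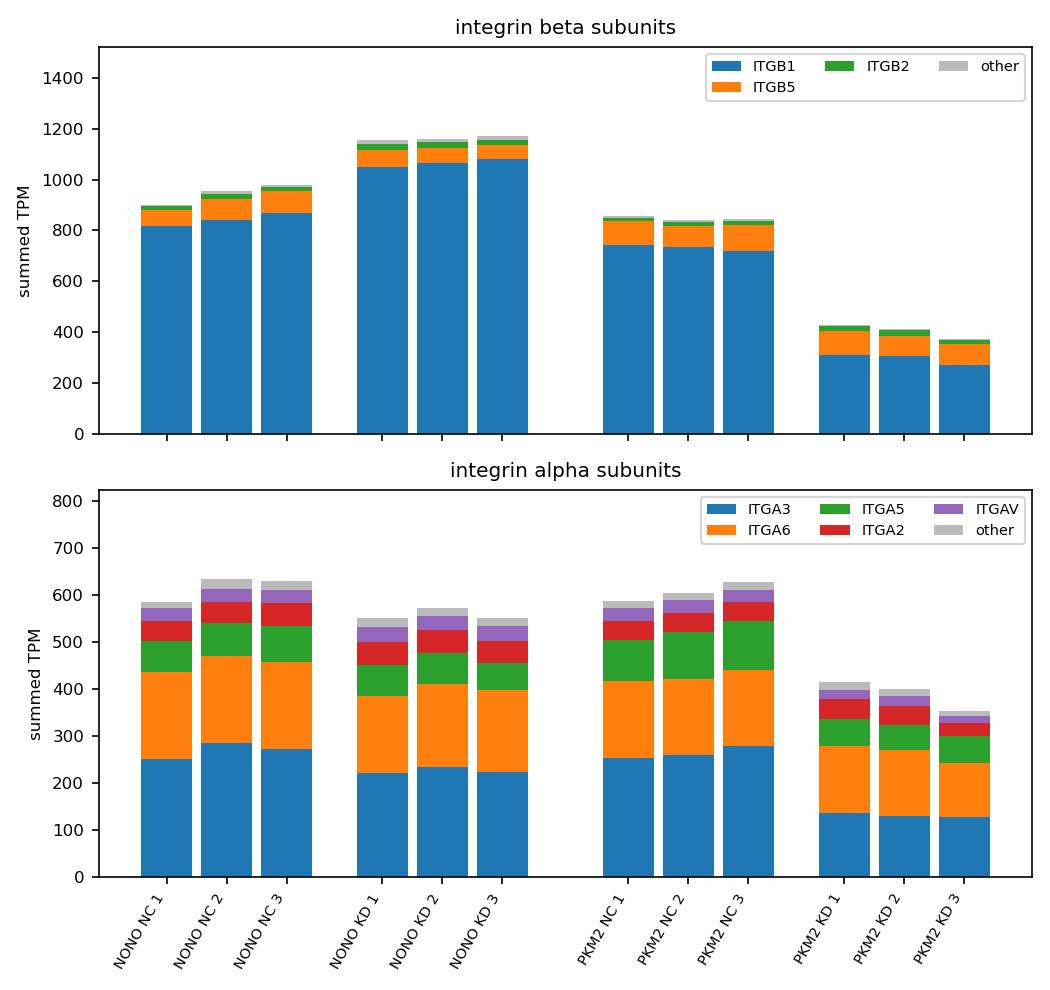
Stacked TPM of the integrin beta subunits (top) and alpha subunits (bottom) in each of the 12 libraries, 1 bar a library. The part of the beta bar held by ITGB1 is lower in all 3 PKM2 KD libraries (270 to 312 TPM) than in all 3 PKM2 NC libraries (719 to 743 TPM), and higher in NONO KD (1051 to 1080 TPM) than in NONO NC (816 to 868 TPM).

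Of the integrin activators, 3 of 5 fell after NONO knockdown (17.2% of all genes did) and 4 of 5 after PKM2 knockdown (34.7% of all genes did), with medians of -0.38 and -0.57; the TLN2 call after PKM2 knockdown ended with the length and GC offset. FERMT2 (kindlin-2) was named in the study from these libraries, so its direction here is not independent evidence. The study also measured its mRNA by RT-qPCR after each knockdown. FERMT2 was short of the study's 2-fold cutoff here, with falls of 1.81-fold after NONO and 1.61-fold after PKM2 knockdown. It had 177, 165 and 164 CPM in NONO NC and 91.0, 93.5 and 95.1 CPM in NONO KD, and 169, 165 and 171 CPM in PKM2 NC against 109, 105 and 98.9 CPM in PKM2 KD. It fell by 0.86 ± 0.05 (adjusted P = 3.50e-07) and by 0.69 ± 0.05 (adjusted P = 2.06e-07) on the log2 scale, edgeR, with all knockdown libraries below all controls.

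FERMT3 (kindlin-3), the kindlin of blood cells, had 25.7, 27.6 and 24.6 CPM in NONO NC and 17.2, 16.9 and 13.7 CPM in NONO KD, a log2 fold change of -0.71 ± 0.10 (adjusted P = 2.60e-04, edgeR). After PKM2 knockdown it went from 29.8 ± 1.52 to 16.2 ± 0.398 CPM, a log2 fold change of -0.88 ± 0.07 (adjusted P = 4.70e-07). The 2 kindlins fell together in both experiments. FERMT1 (kindlin-1), the kindlin of epithelia, was not called after NONO knockdown (0.23 ± 0.15, adjusted P = 0.276) and fell by 0.57 ± 0.11 after PKM2 knockdown (adjusted P = 4.97e-04, edgeR).

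TLN2 had 30.0, 31.1 and 26.6 CPM in NONO NC and 20.8, 24.8 and 21.6 CPM in NONO KD, without overlap, a log2 fold change of -0.38 ± 0.09 (adjusted P = 0.00647, edgeR). Its fall after PKM2 knockdown (-0.30 ± 0.08, adjusted P = 0.00507) was -0.03 with the offset for length and GC content (adjusted P = 0.649). TLN1, the more abundant talin, was called in neither, at 0.09 ± 0.04 (adjusted P = 0.0582) and -0.01 ± 0.06 (adjusted P = 0.880, edgeR).

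In the ILK-PINCH-parvin complex, which bridges beta tails and actin, the members parted. PARVA (alpha-parvin) had 117, 106 and 112 CPM in NONO NC and 99.6, 103 and 105 CPM in NONO KD, a difference that was not called (-0.12 ± 0.05, adjusted P = 0.0743). It had 117, 110 and 111 CPM in PKM2 NC and 49.6, 49.9 and 46.8 CPM in PKM2 KD, a log2 fold change of -1.21 ± 0.05 (adjusted P = 4.02e-09, edgeR). LIMS1, a PINCH adaptor, rose after PKM2 knockdown, from 75.6, 77.4 and 76.8 CPM to 93.9, 96.7 and 86.0 CPM (0.27 ± 0.06, adjusted P = 0.00111, edgeR), but not with the length and GC offset (0.11, adjusted P = 0.0718). ILK rose by 0.20 ± 0.04 after NONO knockdown (adjusted P = 0.00274) and fell by 0.21 ± 0.05 after PKM2 knockdown (adjusted P = 0.00388, edgeR). It shares 2374 of 3484 exon bases with TAF10 on the opposite strand, and the strand setting of the counting is not given in the sources used here, so its counts are uncertain.

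None of the 4 kinases and scaffolds was called after NONO knockdown, where 17.2% of all genes were lowered and 16.2% raised. After PKM2 knockdown, where 34.7% of all genes were lowered and 33.6% raised, 3 of the 4 were lowered and 1 raised. At an unadjusted P below 0.05 the count after NONO knockdown was 1 by edgeR, SRC, and DESeq2 called 0. PXN (paxillin), a scaffold that docks FAK, had 517, 500 and 499 CPM in NONO NC and 488, 516 and 497 CPM in NONO KD, overlapping ranges (-0.01 ± 0.04, adjusted P = 0.815). It had 480, 483 and 490 CPM in PKM2 NC and 172, 168 and 159 CPM in PKM2 KD, a log2 fold change of -1.54 ± 0.05 (adjusted P = 2.84e-10, edgeR). SRC fell from 77.9 ± 0.914 to 33.9 ± 0.892 CPM after PKM2 knockdown (-1.20 ± 0.05, adjusted P = 3.73e-09), and PTK2, which encodes FAK, from 226 ± 6.69 to 205 ± 4.53 CPM (-0.14 ± 0.05, adjusted P = 0.0149, edgeR). The PTK2 call was lost with the length and GC offset and without PKM2 NC replicate 1, PKM2 NC replicate 3 or PKM2 KD replicate 1.

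BCAR1, a substrate scaffold of SRC and FAK, rose where SRC and PXN fell. It had 119, 119 and 120 CPM in PKM2 NC and 186, 192 and 205 CPM in PKM2 KD, without overlap (0.70 ± 0.05, adjusted P = 1.74e-07, edgeR). After NONO knockdown it was at -0.08 ± 0.07 (adjusted P = 0.403).

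**Figure D3:**
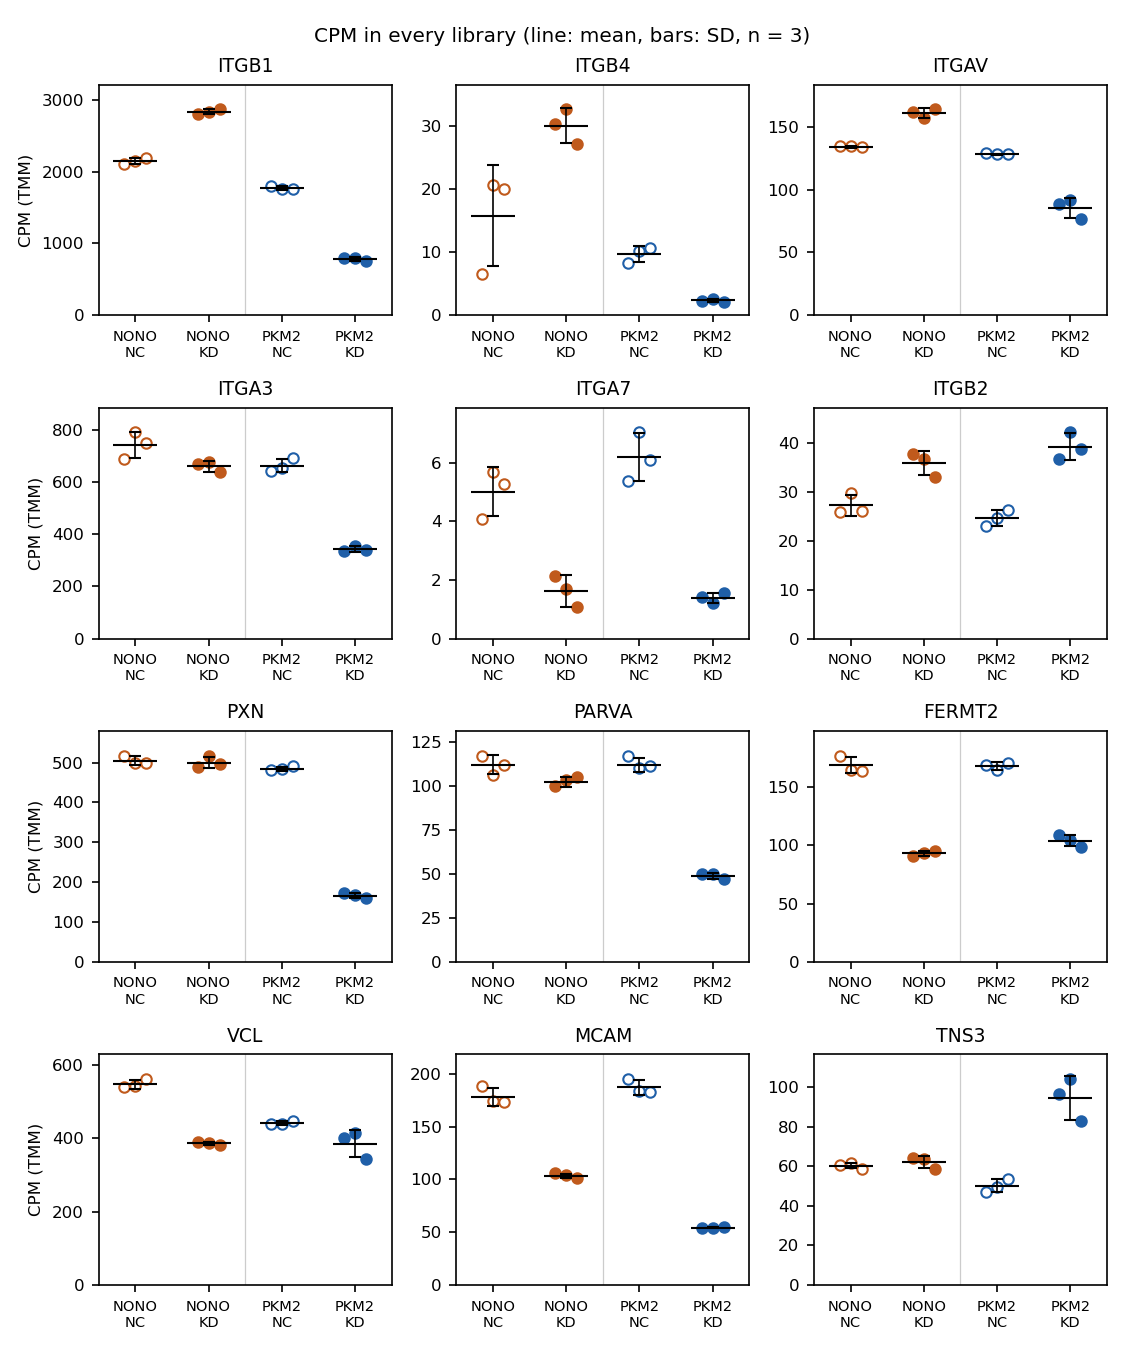
CPM with TMM normalisation of 12 members in every library (points; open for NC, filled for KD), with the mean as a line and the SD as bars (n = 3); the vertical axes start at 0 and differ between panels, and the experiments were normalised apart. ITGB1, ITGB4 and ITGAV lie above NC after NONO knockdown and below NC after PKM2 knockdown, FERMT2, MCAM and ITGA7 lie below NC in both, and PXN lies between 480 and 517 CPM in the other 3 groups but between 159 and 172 CPM in PKM2 KD.

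Among actin linkers, VCL (vinculin), which joins talin to actin, had 538, 541 and 561 CPM in NONO NC and 390, 386 and 381 CPM in NONO KD, a log2 fold change of -0.50 ± 0.04 (adjusted P = 3.47e-06, edgeR). It had 439, 438 and 446 CPM in PKM2 NC and 399, 414 and 342 CPM in PKM2 KD (-0.20 ± 0.06, adjusted P = 0.0174, edgeR), and this call was lost without PKM2 NC replicate 3. Knockdown libraries lay below controls in both experiments. VCL shares 1109 of 9992 exon bases with AP3M1 on the opposite strand.

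FLNA, which cross-links actin and binds beta tails, had 2134, 2102 and 2170 CPM in PKM2 NC and 2757, 2946 and 2374 CPM in PKM2 KD, a log2 fold change of 0.33 ± 0.07 (adjusted P = 8.74e-04, edgeR). It was at 0.11 ± 0.04 after NONO knockdown (adjusted P = 0.0551). ACTN4, an alpha-actinin, fell by 0.15 ± 0.03 (adjusted P = 0.00594) and by 0.81 ± 0.05 (adjusted P = 6.20e-08) on the log2 scale, while the other alpha-actinin, ACTN1, was at -0.01 ± 0.04 (adjusted P = 0.945) and 0.07 ± 0.05 (adjusted P = 0.209, edgeR). ZYX (zyxin) fell by 0.18 ± 0.05 and 0.17 ± 0.05 (adjusted P = 0.0110 and 0.00604), and the zyxin relative LPP rose by 0.15 ± 0.05 after NONO knockdown (adjusted P = 0.0336) and fell by 0.51 ± 0.10 after PKM2 knockdown (adjusted P = 8.75e-04).

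The tensins, which bind beta tails, also parted. TNS3 had 47.2, 49.7 and 53.7 CPM in PKM2 NC and 96.4, 104 and 82.6 CPM in PKM2 KD, the largest called rise of the set in this fit (0.91 ± 0.08, adjusted P = 1.36e-06, edgeR), and was at 0.04 ± 0.05 after NONO knockdown (adjusted P = 0.585). TNS2 had 72.2, 79.1 and 79.5 CPM in NONO NC and 105, 95.9 and 101 CPM in NONO KD (0.39 ± 0.05, adjusted P = 2.93e-04, edgeR), without overlap. In TPM the TNS2 groups overlapped, with 31.6 to 34.0 in NONO NC and 33.6 to 42.1 in NONO KD. In the PKM2 experiment TNS2 went from 57.4 ± 5.38 to 37.6 ± 2.16 CPM (-0.61 ± 0.08, adjusted P = 1.81e-05).

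TNS1 had 0.819, 1.35 and 1.20 CPM in PKM2 NC and 0.249, 0.430 and 0.198 CPM in PKM2 KD (-1.93 ± 0.40, adjusted P = 0.00111, edgeR), on 5 to 34 counts a library. By limma without the filter on low TPM, the TNS1 fall was not called (-0.22, adjusted P = 0.448). TNS4 was not called in either experiment by the adjusted P. It was counted among the DEGs after NONO knockdown at a log2 fold change of 1.05 ± 0.44 and an unadjusted P of 0.0368 (edgeR).

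Of the ERM proteins, which join membrane proteins to cortical actin, MSN was named in the study. It had 1559, 1530 and 1535 CPM in NONO NC and 1220, 1247 and 1235 CPM in NONO KD, and 1563, 1494 and 1565 CPM in PKM2 NC against 1169, 1184 and 1053 CPM in PKM2 KD. It fell without overlap in both, by 0.32 ± 0.03 (adjusted P = 3.58e-05) and 0.44 ± 0.05 (adjusted P = 1.33e-05) on the log2 scale, edgeR. EZR (ezrin) rose after NONO knockdown (0.24 ± 0.04, adjusted P = 0.00144) and RDX (radixin) after PKM2 knockdown (0.26 ± 0.06, adjusted P = 0.00188).

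MCAM (CD146), an immunoglobulin-like adhesion molecule that the study also named from these libraries, had 188, 174 and 173 CPM in NONO NC and 106, 104 and 101 CPM in NONO KD. It had 195, 184 and 183 CPM in PKM2 NC and 53.7, 54.0 and 55.0 CPM in PKM2 KD. All knockdown libraries lay below all controls, and it fell by 0.78 ± 0.05 (adjusted P = 7.29e-07) and by 1.79 ± 0.05 (adjusted P = 1.82e-10) on the log2 scale, edgeR. The fall was 1.72-fold after NONO knockdown, short of the study's 2-fold cutoff, and 3.45-fold after PKM2 knockdown. The study also measured MCAM mRNA by RT-qPCR after each knockdown. Endothelial cells also make MCAM; the 4 endothelial markers were at 2.31 TPM or less each and summed to 1.92 to 2.20 TPM in NONO NC, 1.74 to 2.03 in NONO KD, 3.29 to 4.06 in PKM2 NC and 1.36 to 1.84 in PKM2 KD, and their part in the result was not tested. CD151, a tetraspanin that binds laminin receptors, was at -0.04 ± 0.05 after NONO knockdown (adjusted P = 0.616) and fell from 227 ± 6.93 to 149 ± 7.54 CPM after PKM2 knockdown (adjusted P = 6.95e-07, edgeR).

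Set side by side, 10 members were lowered after both knockdowns (24.4% of 41, where 9.93% of the 14525 genes tested in both experiments were), namely ITGA3, ITGA7, FERMT2, FERMT3, TLN2, VCL, ZYX, ACTN4, MSN and MCAM. They were 90.9% of the members lowered after NONO knockdown and 38.5% of those lowered after PKM2 knockdown, where over all genes these shares were 56.7% and 27.7%. Some of these calls were not kept in every fit. After NONO knockdown ITGA3 was lost without any 1 library other than NONO NC replicate 1, and ITGA7 and TLN2 were lost by limma on log2(TPM + 1). After PKM2 knockdown TLN2 and ZYX were lost with the length and GC offset. Another 7 members were raised after NONO knockdown and lowered after PKM2 knockdown (17.1%, where 3.79% of all genes were): ITGA10, ITGAV, ITGB1, ITGB4, ILK, TNS2 and LPP. They were 70.0% of the members raised after NONO knockdown and 26.9% of those lowered after PKM2 knockdown, against 23.1% and 10.5% over all genes. ITGA10 passed the filter after PKM2 knockdown through the controls, where it was high, so nothing is read from its part in these shares. The 7 became 6 with DESeq2, 1 with each limma setting and 4 without NONO KD replicate 1 or 2. The shares of all genes in those fits are not given here. The reverse, lowered after NONO and raised after PKM2 knockdown, was met by 0 members (4.18% of all genes), by edgeR, DESeq2 and limma alike. The counts in opposite directions were made after the data were seen. The 2 experiments share no library.

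The difference between the knockdowns was tested in 1 edgeR fit over the 12 libraries. It was called for 24 of 41 members (58.5%, where 53.1% of all 15995 genes tested were called), a share close to that of all genes. The direction was uneven, with 18 members lower after PKM2 than after NONO knockdown (43.9%, where 27.4% of all genes were) and 6 higher (14.6%, where 25.7% of all genes were). The median difference was -0.42 for the members and -0.02 for all genes on the log2 scale.

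The largest differences were those of ITGA10 (-3.36 ± 0.56, adjusted P = 8.02e-05), ITGB4 (-2.99 ± 0.41, adjusted P = 9.79e-06), ITGB3 (-2.05 ± 0.27, adjusted P = 6.47e-06), ITGB1 (-1.59 ± 0.06, adjusted P = 1.08e-12), PXN (-1.54 ± 0.06, adjusted P = 3.63e-12) and PARVA (-1.10 ± 0.07, adjusted P = 2.02e-09), by edgeR. The ITGA10 value rests on low counts, with 14, 5 and 11 estimated counts in the PKM2 KD libraries. Of the members lowered after both, 3 fell further after PKM2 knockdown, MCAM (-1.02 ± 0.07, adjusted P = 2.19e-09), ITGA3 (-0.80 ± 0.07, adjusted P = 7.35e-08) and ACTN4 (-0.67 ± 0.06, adjusted P = 1.12e-07), by edgeR. VCL fell further after NONO knockdown (0.29 ± 0.08, adjusted P = 0.00461, edgeR). Over the edgeR, DESeq2 and limma fits the VCL difference ran from 0.19 to 0.37 with adjusted P up to 0.423, so its call was not kept in every fit. For FERMT2 the difference was 0.15 ± 0.07 (adjusted P = 0.0782), for FERMT3 -0.19 ± 0.12 (adjusted P = 0.209), for MSN -0.13 ± 0.06 (adjusted P = 0.0956) and for ITGA7 -0.54 ± 0.32 (adjusted P = 0.167), so none of these 4 was called.

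**Figure D4:**
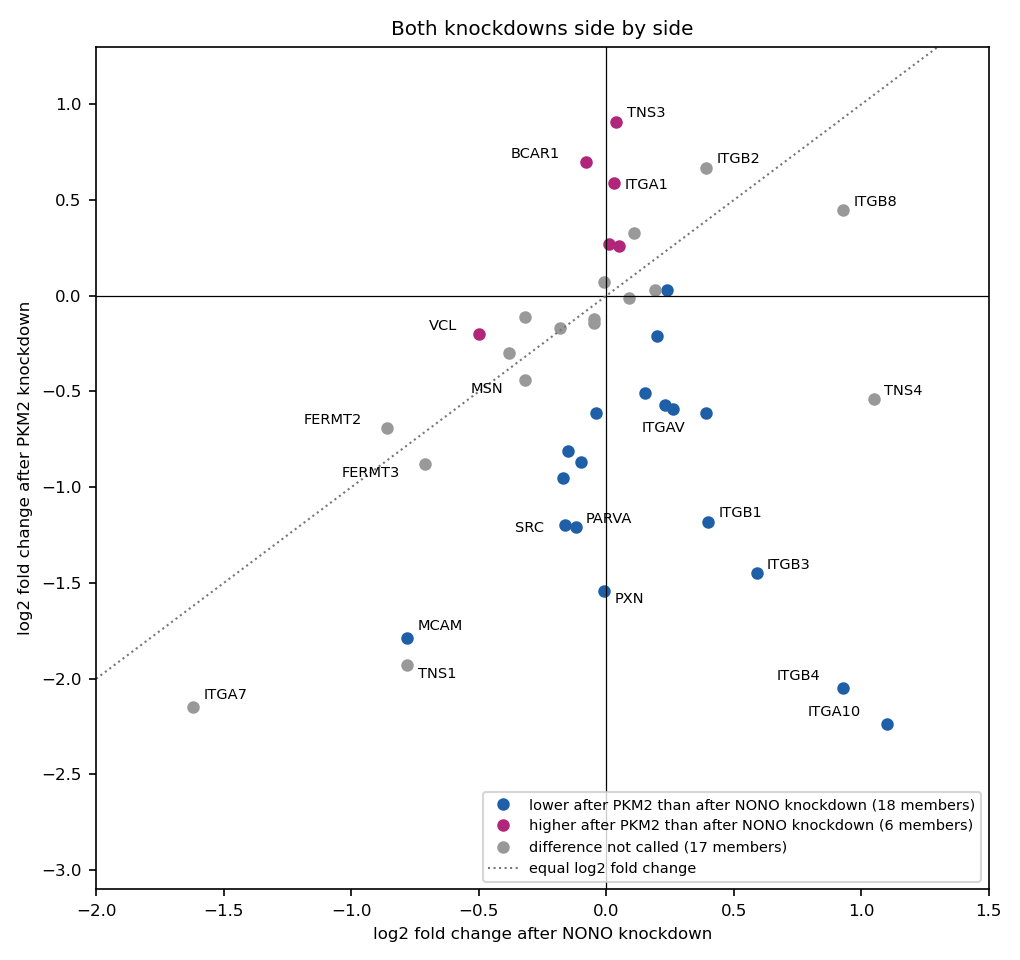
Log2 fold change of the 41 tested members after NONO knockdown (horizontal) and after PKM2 knockdown (vertical), coloured by the edgeR test of the difference between them, with a dotted line where both are equal. ITGA10, ITGB4, ITGB3 and ITGB1 lie in the lower right, raised or above 0 after NONO knockdown and lowered after PKM2 knockdown, and the upper left corner is nearly empty; 28 members have the same sign in both and 13 the opposite sign.

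Among related genes outside the 46, of 9 other integrin subunits 2 were tested after NONO knockdown and 0 called by edgeR or DESeq2, with 0 at an unadjusted P below 0.05 (median log2 fold change -0.01), and 3 were tested after PKM2 knockdown (median 0.14). There ITGBL1, a secreted protein related to beta subunits, fell by 0.78 ± 0.13 (adjusted P = 2.33e-04, edgeR). ITGA8, a partner of ITGB1, had 1, 3 and 2 estimated counts in PKM2 NC and 21, 21 and 34 in PKM2 KD (raised, adjusted P = 3.38e-05, edgeR), and passed the filter through the knockdown group.

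Of 62 other adhesion genes, 59 were tested after NONO knockdown, with 16 lowered (17.2% of all genes were), 15 raised (16.2% of all genes) and a median of -0.00, and 60 after PKM2 knockdown, with 26 lowered (34.7% of all genes), 24 raised (33.6% of all genes) and a median of -0.03. The largest falls after PKM2 knockdown were those of TGFB1I1 (Hic-5), a paxillin relative, from 70.7 ± 3.80 to 6.63 ± 0.675 CPM (-3.41 ± 0.08, adjusted P = 8.05e-11), EVL (-2.45 ± 0.31, adjusted P = 1.98e-05) and RSU1, a partner of PINCH, from 189 ± 7.02 to 50.7 ± 2.87 CPM (-1.90 ± 0.06, adjusted P = 2.69e-10), by edgeR. EVL had 121, 86 and 76 estimated counts in PKM2 NC and 21, 9 and 15 in PKM2 KD, and passed the filter there through the controls, where it was high. LPXN (leupaxin), also of the paxillin family, rose from 76.5 ± 1.01 to 232 ± 4.70 CPM (1.60 ± 0.05, adjusted P = 2.01e-10, edgeR), against the falls of PXN and TGFB1I1. SDC4, a heparan sulfate proteoglycan of focal adhesions, rose after both knockdowns, by 0.52 ± 0.04 (adjusted P = 5.37e-06) and 1.48 ± 0.04 (adjusted P = 2.63e-10), and the adaptor CRK rose by 1.16 ± 0.04 after PKM2 knockdown (adjusted P = 1.22e-09, edgeR). After NONO knockdown the largest falls were those of EVL (-1.04 ± 0.22, adjusted P = 0.00350), CD82 (-1.03 ± 0.10, adjusted P = 2.92e-05) and NEDD9 (-1.0 ± 0.24, adjusted P = 0.00731), and besides SDC4 the largest rises were those of NEXN (0.70 ± 0.12, adjusted P = 0.00135) and RAPGEF1 (0.46 ± 0.05, adjusted P = 4.83e-05).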

How the data were processed

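For 12 MDA-MB-231 libraries, mRNA was isolated on oligo(dT) beads and paired reads of 150 bases were taken. The authors deposited TPM and estimated counts per gene and library, in 1 table per experiment. Per the labels, the submitters' notes name fastp, HISAT2, StringTie and RSEM and the build hg19; the strand setting is not given in the sources used here. The authors' fold changes, P values and mean TPM in these tables were not used, and 0 columns of library values were left unmatched. Library totals were 19861762 to 28455268.

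Estimated counts were rounded, filtered with filterByExpr, TMM-normalised and tested with edgeR 4.0.16 in R 4.3.3 (quasi-likelihood test, group only, each experiment apart; difference between knockdowns over 12 libraries), with Benjamini-Hochberg adjustment over all genes tested and calls below 0.05. The standard error was taken from the F statistic. DEGs followed the study's cutoffs. CPM compare groups and TPM compare genes. On simulated counts, 200 of 200 genes changed 4-fold were recovered in the NONO comparison (14832 genes) and in the PKM2 comparison (15524 genes). The edgeR false calls there were 6 and 10. The changed genes were drawn from those with higher counts, so the check does not cover smaller changes or low counts. Alternatives were DESeq2 1.42.0, a replicate block, RLE size factors, fitting without the low-count filter, a GC and length offset, limma 3.58.1 on log2(TPM + 1) or log2(TPM + 0.1) with a filter at a mean of 1 TPM and on log2(TPM + 1) without it, a fold cutoff of 1.5, and leaving out each library.

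The members, the other lists and the tests were chosen with earlier results of these data known. Values in every library are given for the 6 members with the largest called fall and the 6 with the largest called rise in each comparison, the 6 with the largest called difference, and FERMT2, MCAM and MSN, which the paper names; of the other lists, the 3 largest falls and rises are named. Exon bases shared with other genes in GENCODE 29 are given above for ITGB3, ILK and VCL. Other members share exons too, so their counts are also uncertain. On the opposite strand, ACTN4 shares 868 of 6098 exon bases, PXN 918 of 7460 and MCAM 509 of 7422. On the same strand, BCAR1 shares 788 of 9178. Promoter windows are from RefSeq on GRCh38.p14. Exact permutation tests of 3 against 3 libraries cannot go below 0.1.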

Additional observations from a re-analysis of the deposited data

Results flagged for a closer look

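Members were listed for a closer look where their effect differed between the knockdowns by the edgeR test over the 12 libraries, given as the log2 fold change after PKM2 minus that after NONO knockdown. Of these, 18 were lower after PKM2 knockdown. Integrin subunits were ITGA10 (-3.36), ITGB4 (-2.99), ITGB3 (-2.05), ITGB1 (-1.59), ITGAV (-0.86), ITGA3 (-0.80) and ITGA5 (-0.78). Adaptors, kinases and scaffolds were PXN (-1.54), PARVA (-1.10), SRC (-1.05), TNS2 (-1.02), FERMT1 (-0.82) and ILK (-0.42). Actin linkers and membrane proteins were MCAM (-1.02), ACTN4 (-0.67), LPP (-0.67), CD151 (-0.59) and EZR (-0.22).

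The 6 that were higher after PKM2 knockdown were TNS3 (0.85), BCAR1 (0.77), ITGA1 (0.54), VCL (0.29), LIMS1 (0.24) and RDX (0.21). The LIMS1 difference was 0.06 with the length and GC offset (adjusted P = 0.513, edgeR). Over the edgeR, DESeq2 and limma fits the adjusted P reached 0.423 for the VCL difference and 0.226 for the ITGA1 difference, so these calls were not kept in every fit either. Groups of 3 libraries were not tested gene by gene for an outlying library.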

How the results depend on the processing

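No recomputed single-gene value that edgeR had called changed direction. Some uncalled values changed sign, such as the FERMT3 difference (-0.28 to 0.06) and ITGA1 after NONO knockdown (-0.12 to 0.19). Of the single-gene values recomputed 1018 kept their side of the threshold, 59 lost it and 34 gained it. With limma on log2(TPM + 1), log2(TPM + 0.1) and log2(TPM + 1) without a filter, members raised after NONO knockdown numbered 3, 3 and 2 in place of 10, members lowered 8, 8 and 6 in place of 11, and members raised after PKM2 knockdown 4, 4 and 4 in place of 7. The NONO DEGs were 0, 1 and 0 in place of 3, members lowered after both were 5 without the filter in place of 10, members raised after both 0 without the filter in place of 1, and members raised after NONO and lowered after PKM2 knockdown 1, 1 and 1 in place of 7. Over all genes these fits called 2645 of 13786, 2657 of 13786 and 1699 of 27378 after NONO knockdown, against 4954 of 14832 by edgeR. After PKM2 knockdown they called 8387 of 14026, 8401 of 14026 and 8312 of 29763, against 10614 of 15524 by edgeR. The cause was not tested. At a fold change of 1.5 with an adjusted P below 0.05 the DEGs were 6 after NONO and 22 after PKM2 knockdown. The share of all genes at that cutoff is not given here, so nothing is read from these counts. Members raised after both numbered 2 with DESeq2, RLE size factors, no low-count filter and the replicate block with GC and length offset, and 3 with that offset alone. The shares of all genes raised after both in these fits are not given here, so nothing is read from these counts.

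With 1 library left out, members lowered and raised after NONO knockdown ranged from 9 to 13 and from 6 to 13, and after PKM2 knockdown from 24 to 27 and from 7 to 9. NONO DEGs ranged from 2 to 4 and PKM2 DEGs from 10 to 11. Members lowered after both ranged from 8 to 12, raised after both from 1 to 2, raised after NONO and lowered after PKM2 from 4 to 8, the reverse stayed at 0, and differences ranged from 22 to 26. The shares of all genes with a library left out are not given here, so these ranges describe the spread of the members' own counts alone. The lowest counts for members raised after NONO knockdown (6) came without NONO KD replicate 2, which lost ITGA2, ITGA10, ITGB4 and LPP, and the 4 for opposite directions without NONO KD replicate 1 or 2.

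Same-numbered libraries did not visibly deviate together (correlations -0.065 to 0.036). The deviations were taken within groups of 3 libraries, so these correlations cannot show whether the replicate numbers pair them. With the replicate block, lowered and raised members were 11 and 9 after NONO and 26 and 7 after PKM2 knockdown, and differences were 24. Over all genes the block called 4351 of 14832 after NONO and 10525 of 15524 after PKM2 knockdown, in either direction. The share of all genes with a difference under the block is not given here. Depth limits ITGA7, ITGA10, ITGB3, ITGB8, TNS1 and TNS4 most.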
